A study of Fagopyrum tataricum with 9 samples.

Results

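Seeds of Tartary buckwheat (Fagopyrum tataricum) at initial maturity were set against seeds at the green fruit stage, the ends of a series of 3 stages of MIQIAO 1, a variety whose hull comes off easily. The comparison took the 3 initial maturity libraries (25 days post anthesis) and the 3 green fruit libraries (13 days), 6 of the 9 libraries of the series, and every gene with a count in them, 29918 of 33931. Levels of the 3 discoloration libraries (19 days) are given beside some results. All libraries were made from RNA of whole seeds of field-grown plants of this 1 variety, and the labels name no treatment. Per the labels, 3 plants gave the 3 replicates of a stage, and each stage was taken from the same individuals, but no label says which replicate number marks which plant. The labels list the days and the stages separately, so each day was given to a stage by the order of development.

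The buckwheat fruit is an achene, in which a dry hull (the pericarp) encloses a seed with a starchy endosperm and a folded embryo. A green fruit still grows: cells divide and widen, the hull lays down cellulose, xylan and lignin, and its green tissue fixes carbon. In seed maturation, cells fill with storage proteins, starch and oil, and then gain the ability to survive drying, for which plants make LEA proteins (late embryogenesis abundant), small heat shock proteins and raffinose sugars. Abscisic acid and the transcription factors LEC1, L1L, FUS3, ABI3 and ABI5 are known from Arabidopsis to steer this programme. Gene names below are those of the best Swiss-Prot match of a gene model, and their roles are known from the matched species, mostly Arabidopsis.

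Messenger RNA of the riper seeds was concentrated in very few genes. The fewest genes that together held 50% of counts were 28, 38 and 27 in initial maturity libraries 1, 2 and 3, against 966, 1760 and 1720 in green fruit libraries 1, 2 and 3. The 20 most-counted genes held 46.6, 41.8 and 46.9% of counts at initial maturity, against 16.6, 8.93 and 9.11% in green fruit. No library of one stage reached the range of the other (exact permutation test, two-sided, p = 0.1, the smallest that 3 against 3 libraries allow). At discoloration the 20 most-counted genes held 42.9, 39.6 and 39.7%. Fewer genes reached a fixed count as well: 20405 ± 146 genes had at least 10 counts at initial maturity and 23546 ± 273 in green fruit (mean ± SD, n = 3 each). This is not independent of the concentration, as fewer counts were left for all other genes at initial maturity. Library sizes scaled to the bulk of genes (TMM, below) were 15530155 to 15826910 there, against 36360532 to 49016551 in green fruit. Whether fewer genes were expressed was not tested. Of the genes among the 20 most counted in every library of a stage, 16 at initial maturity and 9 in green fruit, 8 were in both sets.

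Libraries held 22153606 to 24945512 counts at initial maturity and 21585045 to 26777643 in green fruit. Within each stage 1 library stood apart from a close pair: initial maturity library 2 (chi-square per degree of freedom over genes of 106 and 111 to libraries 1 and 3, which differed by 3.54) and green fruit library 1 (255 and 232 to libraries 2 and 3, which differed by 2.56). Discoloration library 1 stood apart likewise, and these are the 3 libraries meant below by those that stand apart. Close pairs still differed by more than counting noise, so each library was kept, but p-values rest on the spread between these libraries, and the share of it that is technical is not known. Levels are CPM (counts scaled to a common library size, with TMM factors that align the bulk of genes between libraries), given in the order of libraries 1, 2 and 3, and "rose" and "fell" mean an adjusted p under 0.05 in edgeR's quasi-likelihood test over all genes. A fold change is that of initial maturity over green fruit, on the log2 scale.

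Most genes changed. Of 23631 genes tested, 14361 differed (60.8%), 6691 higher at initial maturity (28.3%) and 7670 lower (32.5%), and counts of gene groups below are to be read against these shares. By at least 3 on the log2 scale, 1269 genes rose and 2398 fell, and by at least 8, 129 rose and 194 fell. CPM of the 3 libraries of one stage lay wholly above or below those of the other for 15627 genes tested (66.1%). Genes named below as risen or fallen were chosen among these, so their lack of overlap is no separate result. Without the 3 libraries that stand apart 19353 genes differed, 9592 higher and 9761 lower. Of 27941 genes with an adjusted p in the authors' deposited table, 7788 had one under 0.05 there (27.9%), 3204 higher and 4584 lower, and of the 7605 genes called there and here none had the opposite direction. With the counts of each close pair summed (close pairs added together, below) 9183 genes differed, 4095 higher and 5088 lower.

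The split between higher and lower genes depended on the scaling. The median log2 fold change of all genes was -0.06 with TMM and -1.39 with library totals only, which make no allowance for a few genes taking a large share of the counts. With totals only, 19519 genes differed and 10.7% of these were higher, against 46.6% with TMM. Of the 23631 genes, 2093 rose and 17426 fell on that scale, and counts of gene groups on it are to be read against these. Of the 6691 risen genes, 2093 also rose on that scale and 1740 fell, while all 7670 fallen genes fell on both. The shift between the scales was 1.33, so a small median rise of a gene group turned into a fall with library totals only, and groups with a small rise are given with both medians. Groups near that of all genes became mostly lower on that scale, and their counts on it are given too.

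**Figure D1:**
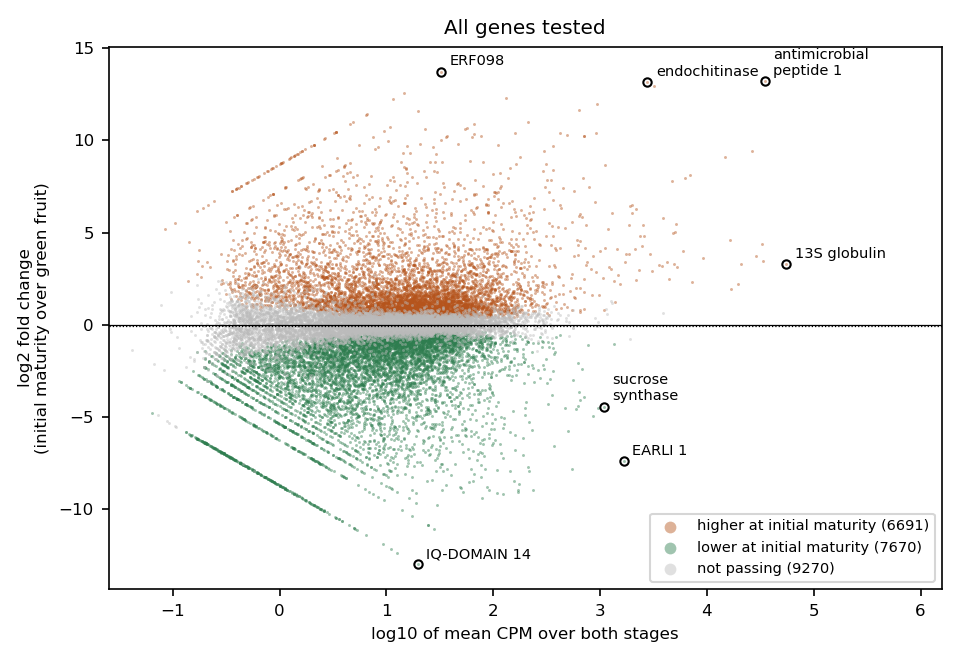
Log2 fold change of initial maturity over green fruit against the log10 of the mean CPM over both stages, for all 23631 genes tested. Each point is a gene, coloured by whether it was higher (6691), lower (7670) or not past the threshold (9270), and the dotted line is the median of all genes (-0.06). The diagonal lines of points at the left are genes with few or no counts in 1 stage, whose fitted values depend on the small count added to each library.

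Markers of most tissues moved with the stage. Embryo markers (oleosins, LEA proteins, vicilins and embryo regulators) had 19 of 23 members higher and 3 lower, and held 8.62, 8.15 and 8.69% of counts at initial maturity, against 2.46, 0.985 and 0.973% in green fruit. They share members with lists given below, and the vicilin-like gene FtPinG0001724500.01 alone had a mean of 62737 of their 125334 summed CPM at initial maturity. Regulators among them did not follow the rise: both NF-YB-6 genes described below fell (log2 fold change -8.96 and -2.91), and FUS3 did not pass (0.24). Seed coat and hull markers (flavonoid regulators, laccases and cellulose synthases of woody walls) had 0 of 21 higher and 16 lower, with 0.00565, 0.00458 and 0.0056% of counts at initial maturity, against 0.0306, 0.198 and 0.204% in green fruit. Green tissue markers fell in all 21 members tested, with 0.00414, 0.00412 and 0.00484% of counts at initial maturity, against 0.249, 0.674 and 0.706% in green fruit. Endosperm markers had 2 of 15 higher and 10 lower, with 0.0373, 0.0361 and 0.0372% of counts at initial maturity, against 0.411, 0.179 and 0.176% in green fruit. Pollen and flower markers had 2 of 22 higher and 13 lower. Vascular markers had 9 of 33 higher (27.3%) and 11 lower (33.3%), shares close to those of all genes. In whole seeds, fewer cells of a type and less RNA per cell cannot be told apart. Green fruit library 1 had more embryo and endosperm marker counts and fewer hull and green tissue marker counts than green fruit libraries 2 and 3, and values without it are given below where they change a call or a count by over 1.5 times.

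Storage protein genes, which code for the globulins that the germinating seedling will use, held the largest share of counts of any gene list in initial maturity libraries 1 and 3. Of 14 genes tested (of 15 matched) 13 rose and none fell, with a median log2 fold change of 3.24. Together they held 26.4, 15.6 and 26.9% of counts at initial maturity, against 9.38, 3.15 and 3.26% in green fruit, and 25.5 ± 0.784% at discoloration (mean ± SD, n = 3). The spread within a stage was wide, as initial maturity library 2 had the lowest and green fruit library 1 the highest share of their stages. The difference in share was 17.7 percentage points, and the exact permutation p was 0.1.

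A 13S globulin gene (FtPinG0000917200.01, chromosome 7, 19116283 to 19118362) had 114564, 67028 and 120120 CPM at initial maturity, against 19129, 5513 and 5999 CPM in green fruit (log2 fold change 3.30, SE 1.00, adjusted p = 0.017). An 11S globulin gene (FtPinG0009373700.01, chromosome 1, 48210483 to 48212449) had 64113, 49887 and 69791 CPM at initial maturity, against 10750, 2978 and 3183 CPM in green fruit (log2 fold change 3.44, SE 0.93, adjusted p = 0.0102). A vicilin-like gene (FtPinG0001724500.01, chromosome 3, 40139361 to 40141056), matched to a macadamia storage protein that also yields antimicrobial peptides, had 64979, 57293 and 65939 CPM at initial maturity, against 5419, 1853 and 1786 CPM in green fruit (log2 fold change 4.38, SE 0.86, adjusted p = 0.00184). All 3 genes were higher in every initial maturity library than in any green fruit library, a condition of naming them. Green fruit library 1 was the highest of its stage in each.

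The legumin B gene (FtPinG0004859600.01, chromosome 3), another globulin, had 38186, 18139 and 38822 CPM at initial maturity, against 13912, 3526 and 3444 CPM in green fruit (log2 fold change 2.19, SE 0.80, adjusted p = 0.0383). Initial maturity library 2 was close to green fruit library 1, and the call was lost with close pairs added together, with library totals only, and when any 1 library other than green fruit library 1 or initial maturity library 2 was left out (adjusted p up to 0.112). A further 13S globulin copy on chromosome 7 (FtPinG0000917700.01) had 36222, 20174 and 38322 CPM at initial maturity, against 3589, 185 and 189 CPM in green fruit (log2 fold change 4.58, SE 1.28, adjusted p = 0.0118). The 13S genes are close copies, and no source used here says whether reads that match several of them were counted, so the division between copies is uncertain. With close pairs added together 2 members of the list rose, neither of them named here, and the 13S gene named first and legumin B also did not pass in a fit of the 6 libraries alone. The 13S gene named first lost its call without green fruit library 2 (adjusted p = 0.0553).

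Oil body genes rose with them. Of 28 genes tested for oil bodies and triacylglycerol (of 30 matched), 19 rose and 5 fell, with a median of 2.05, and they held 3.43, 3.82 and 3.52% of counts at initial maturity, against 1.27, 0.593 and 0.597% in green fruit. The oleosin gene matched to NAP-II (FtPinG0007882300.01, chromosome 3, 6700948 to 6701508), a coat protein of oil droplets, had 15141, 19517 and 15961 CPM at initial maturity, against 2358, 903 and 908 CPM in green fruit (log2 fold change 3.60, SE 0.61, adjusted p = 7.8e-04). Oleosin 5 (FtPinG0006679900.01, chromosome 4, 2797970 to 2798889) had 9832, 13292 and 10322 CPM at initial maturity, against 1226, 423 and 439 CPM in green fruit (log2 fold change 4.0, SE 0.60, adjusted p = 4.0e-04). Both oleosins were higher in all initial maturity libraries, with library 2 the highest. The 5 fallen members all matched hydroxysteroid dehydrogenases, the enzyme part of another oil body protein, and one of them was FtPinG0006064400.01 on chromosome 2, with 0.382, 0.632 and 0.515 CPM at initial maturity, against 9.08, 20 and 19.6 CPM in green fruit (log2 fold change -4.98, SE 0.48, adjusted p = 3.6e-05). Fatty acid synthesis genes, whose products make the chains for the oil, went the other way: 12 of 53 rose and 29 fell, with a median of -0.79.

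**Figure D2:**
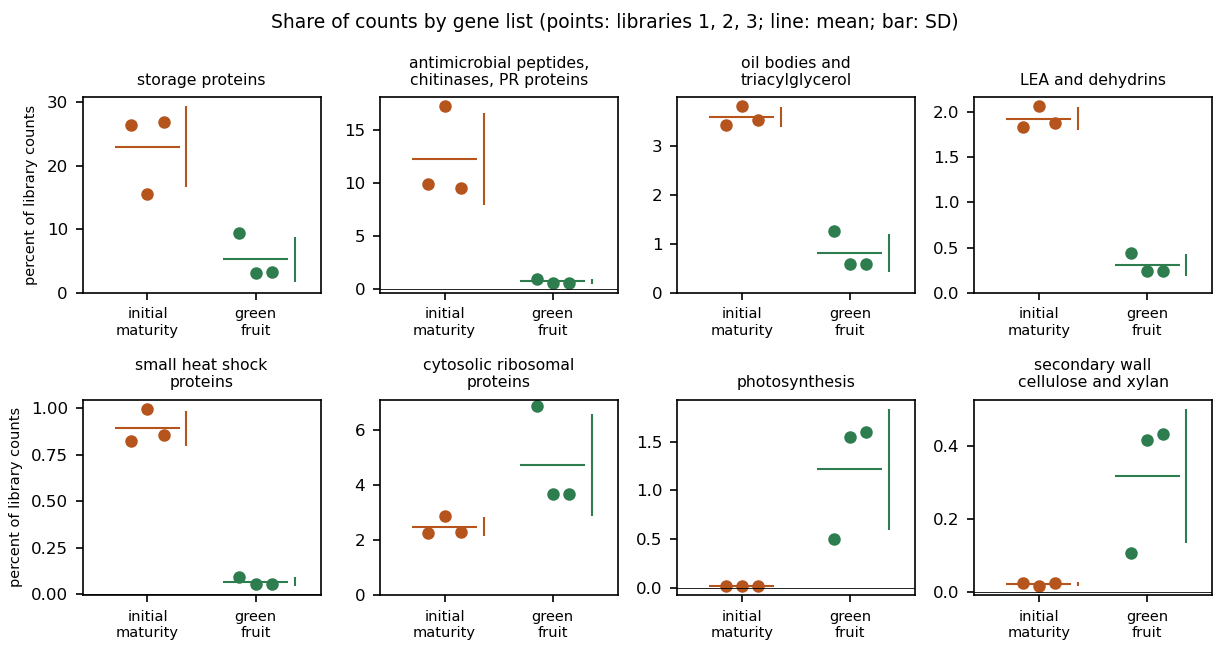
Percent of each library's counts held by 8 gene lists, for the 3 initial maturity libraries (left) and the 3 green fruit libraries (right) of each panel. Points are libraries, lines the mean and bars the SD. Storage proteins reached 15.6 to 26.9% at initial maturity and 3.15 to 9.38% in green fruit, and photosynthesis 0.0171 to 0.0206% and 0.499 to 1.6%.

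Genes for surviving dryness rose in most members. LEA and dehydrin genes, whose products protect proteins and membranes as water is lost, rose in 16 of 21 members and fell in 3, with a median of 3.32, and 9 of 30 matched genes did not pass the filter on low counts. The gene matched to SBP65 (FtPinG0003302500.01, chromosome 8, 10145018 to 10147041), a biotin-carrying LEA protein of seeds, had 7721, 7042 and 7897 CPM at initial maturity, against 341, 32.6 and 32.3 CPM in green fruit (log2 fold change 5.80, SE 1.03, adjusted p = 0.00105). The gene matched to carrot DC-8 (FtPinG0003652500.01, chromosome 2, 52887948 to 52889708) had 4218, 5058 and 4422 CPM at initial maturity, against 342, 70.2 and 68.2 CPM in green fruit (log2 fold change 4.83, SE 0.72, adjusted p = 3.7e-04). In both, the highest green fruit value was that of library 1, still far below every initial maturity library. EMB-1 (FtPinG0002444400.01, chromosome 1), a small LEA protein first found in carrot embryos and named here after its values were seen, had 9238, 18555 and 9612 CPM at initial maturity, against 127, 11.8 and 8.85 CPM in green fruit (log2 fold change 7.98, SE 1.24, adjusted p = 4.8e-04).

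The 3 fallen members of this list were all matched to PCC13-62, a desiccation-related protein of a resurrection plant. One (FtPinG0009196700.01, chromosome 8) had 1.59, 1.77 and 1.16 CPM at initial maturity, against 62.4, 9.73 and 9.03 CPM in green fruit (log2 fold change -4.16, SE 0.78, adjusted p = 0.0014). Another (FtPinG0007254300.01, chromosome 2) had no count at initial maturity, against 2.48, 4.84 and 4.82 CPM in green fruit, so it was at least 21.1-fold lower at initial maturity, counted against a floor of 3 counts per library. A pair of genes outside the list whose names speak of dryness also fell. The gene matched to RD22 (FtPinG0009473100.01, chromosome 6), induced by dehydration in Arabidopsis, had 76.9, 68.6 and 93.9 CPM at initial maturity, against 617, 2194 and 2646 CPM in green fruit (log2 fold change -4.51, SE 0.54, adjusted p = 1.2e-04). The gene matched to abscisic stress-ripening protein 1 (FtPinG0002757300.01, chromosome 7) had 58, 41.8 and 62.1 CPM at initial maturity, against 676, 2130 and 2185 CPM in green fruit (log2 fold change -4.94, SE 0.50, adjusted p = 4.7e-05). In both, green fruit library 1 was the lowest of its stage but above all initial maturity libraries.

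Small heat shock proteins, chaperones that hold unfolding proteins, had 24 of 30 members higher and 2 lower (of 35 matched), and with 5.04 the highest median of the lists. The 18.1 kDa class I gene (FtPinG0008433900.01, chromosome 1, 33609905 to 33610476) had 8625, 11247 and 9235 CPM at initial maturity, against 498, 197 and 202 CPM in green fruit (log2 fold change 5.02, SE 0.59, adjusted p = 1.0e-04). The small heat shock gene of the chloroplast (FtPinG0007566000.01, chromosome 2, 33754684 to 33755905) had 882, 1154 and 928 CPM at initial maturity, against 1.24, 0.755 and 0.332 CPM in green fruit (log2 fold change 10.31, SE 0.57, adjusted p = 3.7e-06). A 17.5 kDa class I gene (FtPinG0003334500.01, chromosome 8, 11064248 to 11064682) had 234, 320 and 243 CPM at initial maturity, against 0.0825, 0.0612 and 0 CPM in green fruit (log2 fold change 12.29, SE 0.56, adjusted p = 1.8e-06). The last gene was all but absent from green fruit, while the 18.1 kDa gene was well expressed in green fruit library 1. Their mean CPM at discoloration was 8953, 729 and 31.9.

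The larger chaperones were mixed. Of 57 genes for HSP70, HSP90, ClpB and heat stress factors 28 rose and 14 fell, with a median of 0.85 (-0.44 with library totals only). A heat shock cognate 70 kDa gene (FtPinG0005725200.01, chromosome 5) had 1197, 1740 and 1203 CPM at initial maturity, against 156, 35.5 and 36.5 CPM in green fruit (log2 fold change 4.18, SE 0.62, adjusted p = 3.9e-04). Its groups did not overlap, a condition of naming it, and initial maturity library 2 was the highest.

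Genes of raffinose sugars and trehalose, which act as glasses and osmolytes in dry tissue, had 17 of 34 members higher and 8 lower, with a median of 0.72 (-0.62 with library totals only). Galactinol synthase 2 (FtPinG0002189200.01, chromosome 8, 3423384 to 3425482), which makes the galactosyl donor for raffinose, had 525, 657 and 563 CPM at initial maturity, against 4.84, 0.408 and 0.128 CPM in green fruit (log2 fold change 8.36, SE 1.22, adjusted p = 3.4e-04). A raffinose synthase gene, galactinol-sucrose galactosyltransferase 2 (FtPinG0000428300.01, chromosome 3, 9400496 to 9402468), had 547, 440 and 506 CPM at initial maturity, against 46.2, 43.9 and 43 CPM in green fruit (log2 fold change 3.49, SE 0.20, adjusted p = 4.5e-06). Another gene with the same match (FtPinG0006247600.01, chromosome 6) fell, with 66.8, 55.7 and 60.9 CPM at initial maturity, against 148, 119 and 114 CPM in green fruit (log2 fold change -1.05, SE 0.19, adjusted p = 0.00121). In all 3 genes the libraries of the stages stood clear of each other, a condition of naming them.

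Antioxidant enzyme genes split evenly, with 11 of 37 higher and 10 lower and a median of 0.24 (-1.14 with library totals only). A Cu-Zn superoxide dismutase (FtPinG0006372000.01, chromosome 8), which removes superoxide, had 1676, 2161 and 1810 CPM at initial maturity, against 186, 82.2 and 83.9 CPM in green fruit (log2 fold change 4.0, SE 0.41, adjusted p = 5.1e-05). The 1-Cys peroxiredoxin gene (FtPinG0007446600.01, chromosome 8), of a class made in embryos and aleurone, had 3184, 4458 and 3389 CPM at initial maturity, against 1073, 476 and 492 CPM in green fruit (log2 fold change 2.43, SE 0.45, adjusted p = 0.00124). Monodehydroascorbate reductase (FtPinG0004862700.01, chromosome 8), which recycles ascorbate, had 46.4, 25.8 and 48.1 CPM at initial maturity, against 147, 246 and 247 CPM in green fruit (log2 fold change -2.41, SE 0.30, adjusted p = 1.4e-04). Superoxide dismutase and peroxiredoxin were thus high in every initial maturity library and the reductase in every green fruit library. Without the libraries that stand apart, 14 members were higher and 16 lower.

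Defence genes rose more often than they fell with TMM, and a few of them reached very high levels. With library totals only more fell than rose, as for all genes. The median of the list lay above that of all genes by 1.09 with TMM and by 1.08 with library totals only. Of 71 genes tested for antimicrobial peptides, chitinases and pathogenesis-related proteins (of 123 matched) 34 rose and 15 fell, with a median of 1.03 (-0.31 with library totals only, where 21 rose and 29 fell). The list held 9.9, 17.2 and 9.49% of counts at initial maturity, against 0.932, 0.541 and 0.533% in green fruit, and 4.33 ± 0.102% at discoloration. Initial maturity library 2 had the highest share, the reverse of its place for storage proteins. The difference in share was 11.5 percentage points (exact permutation p = 0.1).

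Antimicrobial peptide 1, a small cysteine-rich, chitin-binding peptide first isolated from common buckwheat seeds, matched several neighbouring genes on chromosome 6. One (FtPinG0004979700.01, 45236072 to 45236497) had 54716, 101983 and 52655 CPM at initial maturity, against 11.3, 10.4 and 0.179 CPM in green fruit (log2 fold change 13.22, SE 1.80, adjusted p = 2.4e-04). Another (FtPinG0004981100.01, 45265800 to 45266210) had 43423, 75171 and 41268 CPM at initial maturity, against 214, 11.9 and 2.32 CPM in green fruit (log2 fold change 9.45, SE 1.85, adjusted p = 0.00179). A further copy (FtPinG0004980500.01, 45253326 to 45253743) had 4321, 10402 and 4426 CPM at initial maturity, against 1.4, 0.898 and 0.102 CPM in green fruit (log2 fold change 12.96, SE 1.12, adjusted p = 2.1e-05). In each, initial maturity library 2 was the highest and green fruit library 3 the lowest. Per gene length, in FPKM, FtPinG0004979700.01 was the top gene of ripe seed, with 92758, 154784 and 86985 FPKM at initial maturity, against 40.5, 45.5 and 0.776 FPKM in green fruit. Antimicrobial peptide 2 (FtPinG0004980000.01, 45244570 to 45245068), between these copies and named after its values were seen, had 20020, 46893 and 21017 CPM at initial maturity, against 154, 7.08 and 1.35 CPM in green fruit (log2 fold change 9.08, SE 1.84, adjusted p = 0.0022). Reads may be shared among such copies.

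Other defence genes took the same course or the opposite one. A gene matched to endochitinase (FtPinG0008881000.01, chromosome 6, 45187627 to 45187921), of the enzymes that cut fungal walls, had 3416, 9852 and 3373 CPM at initial maturity, against 0.0275, 1.71 and 0 CPM in green fruit (log2 fold change 13.15, SE 1.72, adjusted p = 1.9e-04), with a mean of 46.4 CPM at discoloration. Its gene model is short, and whether it codes for a whole enzyme was not tested. The defensin-like gene AX2 on chromosome 4 (FtPinG0006697700.01, chromosome 4, 2228956 to 2229327) had 1341, 2881 and 1444 CPM at initial maturity, against 1.05, 0.326 and 0.0255 CPM in green fruit (log2 fold change 12, SE 1.07, adjusted p = 2.5e-05). Library 2 was the highest at initial maturity for both, and nearly all counts of the endochitinase in green fruit came from library 2. Another gene matched to AX2 (FtPinG0000621200.01, chromosome 5) had 783, 3720 and 816 CPM at initial maturity, against 1304, 466 and 445 CPM in green fruit and did not pass (log2 fold change 1.26, adjusted p = 0.163). Its groups overlapped, as green fruit library 1 exceeded initial maturity libraries 1 and 3, and it rose without that green fruit library.

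The 15 fallen members included other defensins, chitinases and thaumatin-like proteins. A chitinase-like protein 1 gene (FtPinG0000874100.01, chromosome 2), which takes part in cellulose deposition in Arabidopsis, had 110, 97.8 and 119 CPM at initial maturity, against 214, 799 and 831 CPM in green fruit (log2 fold change -2.49, SE 0.45, adjusted p = 0.00112). A defensin-like gene on chromosome 2 (FtPinG0008760900.01) had 13.8, 6.82 and 13.6 CPM at initial maturity, against 206, 103 and 93.3 CPM in green fruit (log2 fold change -3.56, SE 0.42, adjusted p = 1.1e-04). Its neighbour FtPinG0008760700.01 had no count at initial maturity and 20.6, 17.2 and 17.6 CPM in green fruit, at least 96.5-fold lower at initial maturity. Both defensins of chromosome 2 thus went against that of chromosome 4.

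Protease inhibitor genes, which guard stored protein against insects and the seed's own enzymes, had 20 of 31 members higher and 6 lower, with a median of 1.87. Cysteine proteinase inhibitor 6 (FtPinG0002981400.01, chromosome 6) had 1684, 3561 and 1749 CPM at initial maturity, against 93.2, 49.5 and 45.7 CPM in green fruit (log2 fold change 5.21, SE 0.48, adjusted p = 2.9e-05). Trypsin inhibitor 2c (FtPinG0008672700.01, chromosome 3), known from common buckwheat seeds, was already abundant, with 30124, 17399 and 32585 CPM at initial maturity, against 11744, 4225 and 4517 CPM in green fruit (log2 fold change 1.97, SE 0.70, adjusted p = 0.0345). Its call was lost with close pairs added together, with library totals only, with the 6 libraries alone, with the replicate number as a block, and without any 1 library other than green fruit library 1 or initial maturity library 2 (adjusted p up to 0.104). In the opposite direction, the proteinase inhibitor gene FtPinG0001917900.01 on chromosome 1 had 1.08, 1.2 and 1.29 CPM at initial maturity, against 732, 63.1 and 65 CPM in green fruit (log2 fold change -7.91, SE 1.13, adjusted p = 3.0e-04). Among the green fruit libraries, library 1 was far above libraries 2 and 3 in that gene, and each of them stood above the initial maturity libraries.

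**Figure D3:**
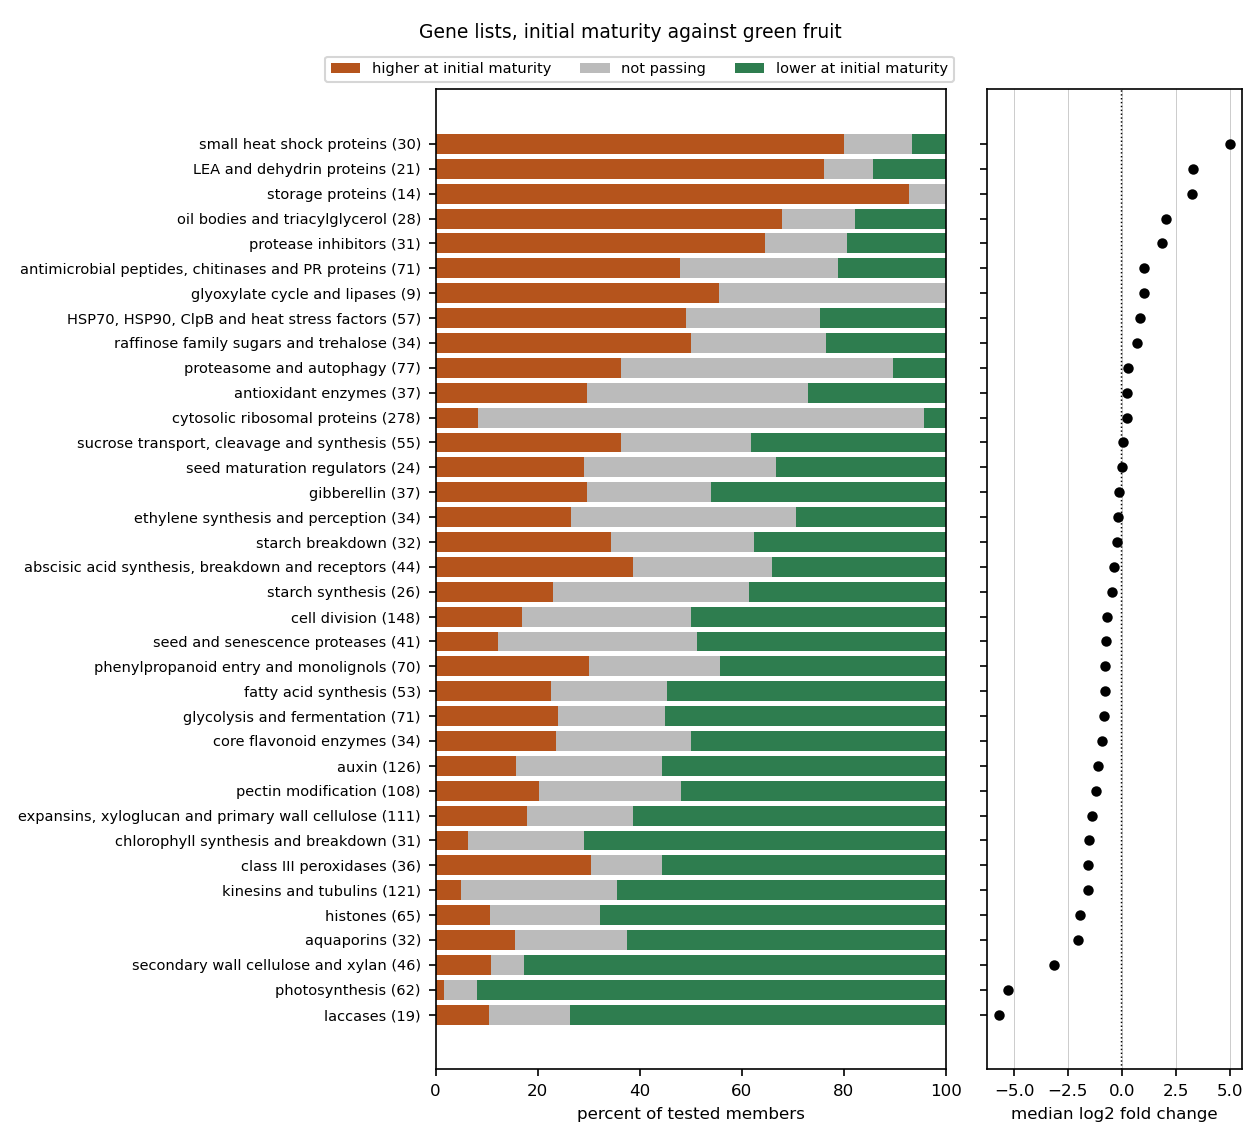
Gene lists ordered by their median log2 fold change, with the number of members tested in parentheses. Left: percent of tested members higher at initial maturity, not past the threshold, and lower. Right: median log2 fold change of each list, with the dotted line at the median of all genes (-0.06). Medians run from 5.04 for small heat shock proteins to -5.72 for laccases.

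Regulators of seed maturation did not move as a block: 7 of 24 rose, 8 fell and 9 did not pass, a share of risen genes (29.2%) near that of all genes. Their median was 0.03 (-1.30 with library totals only, where 5 rose and 16 fell). The gene matched to ABI5 (FtPinG0003523300.01, chromosome 7, 48962454 to 48965326), the bZIP factor that acts late in maturation under abscisic acid, had 291, 314 and 293 CPM at initial maturity, against 40, 12.5 and 12.8 CPM in green fruit (log2 fold change 3.78, SE 0.46, adjusted p = 1.2e-04). AIL5 (FtPinG0003951500.01, chromosome 2), an AP2-type factor, had 195, 225 and 204 CPM at initial maturity, against 25.4, 8.57 and 9.08 CPM in green fruit (log2 fold change 3.86, SE 0.42, adjusted p = 7.1e-05). One of the genes matched to L1L, the NF-YB-6 subunit of early embryos (FtPinG0001408600.01, chromosome 1, 6196790 to 6199365), had 0.0637, 0.253 and 0.0644 CPM at initial maturity, against 175, 11.9 and 11 CPM in green fruit (log2 fold change -8.96, SE 1.49, adjusted p = 7.3e-04). A further NF-YB-6 gene (FtPinG0005441000.01, chromosome 4) had 5.99, 3.73 and 4.96 CPM at initial maturity, against 69.1, 19.3 and 21.7 CPM in green fruit (log2 fold change -2.91, SE 0.48, adjusted p = 7.0e-04). ABI5 and AIL5 were thus high in every initial maturity library and both NF-YB-6 genes in every green fruit library, most of all in library 1. FUS3 (FtPinG0003428600.01, chromosome 6), a B3 factor of mid maturation, had 69.4, 53.2 and 68.4 CPM at initial maturity, against 102, 29.8 and 29.5 CPM in green fruit, overlapping groups, and did not pass (log2 fold change 0.24, adjusted p = 0.65); its mean was 184 CPM at discoloration. Without green fruit library 1 the list had 11 risen members and FUS3 was among them.

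Genes of abscisic acid, gibberellin and ethylene were likewise split with TMM, while more of each fell than rose with library totals only, as for all genes. For abscisic acid 17 of 44 rose and 15 fell (median -0.35), and with library totals only 11 rose and 26 fell. Molybdenum cofactor sulfurase (FtPinG0008769100.01, chromosome 2), which activates the last enzyme of synthesis, had 66.2, 71.5 and 70.7 CPM at initial maturity, against 9.9, 6.96 and 6.84 CPM in green fruit (log2 fold change 3.14, SE 0.18, adjusted p = 4.4e-06). That last enzyme, abscisic-aldehyde oxidase (FtPinG0002397900.01, chromosome 3), had 187, 121 and 181 CPM at initial maturity, against 27.1, 52.5 and 51.8 CPM in green fruit (log2 fold change 1.90, SE 0.41, adjusted p = 0.00299; not past the threshold with library totals only). An 8'-hydroxylase gene (FtPinG0004462100.01, chromosome 3), which breaks abscisic acid down, had 9.75, 2.91 and 9.72 CPM at initial maturity, against 15.2, 55.9 and 57 CPM in green fruit (log2 fold change -2.52, SE 0.55, adjusted p = 0.00333). The receptor gene PYL8 (FtPinG0001214600.01, chromosome 7) had 10.7, 16.7 and 10.6 CPM at initial maturity, against 27.8, 49 and 52.6 CPM in green fruit (log2 fold change -1.77, SE 0.31, adjusted p = 0.00106). Both of these synthesis genes were thus higher, and this single breakdown gene and this single receptor gene lower, in every initial maturity library than in any green fruit library. Another gene matched to molybdenum cofactor sulfurase (FtPinG0005603100.01, chromosome 1) had 27, 15.5 and 29.1 CPM at initial maturity, against 26.1, 32.1 and 33.7 CPM in green fruit. Its groups overlapped and it did not pass (log2 fold change -0.36, adjusted p = 0.219), though it fell with library totals only.

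Gibberellin genes, whose hormone opposes abscisic acid in dormancy, had 11 of 37 higher and 17 lower (median -0.15; with library totals only 7 rose and 23 fell). The DELLA repressor gene GAI (FtPinG0001175000.01, chromosome 4) had 155, 160 and 162 CPM at initial maturity, against 53.6, 27.2 and 26.8 CPM in green fruit (log2 fold change 2.15, SE 0.27, adjusted p = 1.7e-04). Gibberellin 2-beta-dioxygenase 1 (FtPinG0000249600.01, chromosome 1), which inactivates the hormone, had 149, 238 and 139 CPM at initial maturity, against 50.3, 57.1 and 56.2 CPM in green fruit (log2 fold change 1.68, SE 0.24, adjusted p = 3.1e-04; not past the threshold with library totals only). Gibberellin-regulated protein 6 (FtPinG0006350100.01, chromosome 4) had 2.23, 0.885 and 1.87 CPM at initial maturity, against 63.2, 345 and 332 CPM in green fruit (log2 fold change -7.21, SE 0.72, adjusted p = 4.5e-05), and was lowest in library 1 among the green fruit libraries.

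Among 34 ethylene genes 9 rose and 10 fell (with library totals only 4 rose and 24 fell). Without the libraries that stand apart 14 ethylene genes rose and 13 fell. A gene matched to EIN3-like 4 (FtPinG0008254600.01, chromosome 8, 15151870 to 15153741), of the transcription factors that act in ethylene response, had 193, 236 and 211 CPM at initial maturity, against 3.77, 0.49 and 0.332 CPM in green fruit (log2 fold change 7.14, SE 0.90, adjusted p = 1.5e-04). Ethylene receptor 2 (FtPinG0006853500.01, chromosome 4) had 102, 134 and 93.6 CPM at initial maturity, against 13.4, 4.9 and 4.26 CPM in green fruit (log2 fold change 3.87, SE 0.45, adjusted p = 1.0e-04), whereas a gene of ACC synthase (FtPinG0004556400.01, chromosome 5), the committed step of ethylene synthesis, had 6.56, 4.04 and 5.86 CPM at initial maturity, against 13.6, 67.3 and 64.9 CPM in green fruit (log2 fold change -3.15, SE 0.55, adjusted p = 0.00101). Auxin genes fell more often than all genes, with 20 of 126 higher and 70 lower (55.6%, median -1.09). Auxin response factor 2 (FtPinG0005575800.01, chromosome 2) had 35.7, 32.4 and 33.5 CPM at initial maturity, against 149, 145 and 147 CPM in green fruit (log2 fold change -2.12, SE 0.17, adjusted p = 1.6e-05), and the repressor gene IAA9 (FtPinG0009368700.01, chromosome 8) had 37.8, 32.9 and 41.5 CPM at initial maturity, against 110, 139 and 140 CPM in green fruit (log2 fold change -1.79, SE 0.18, adjusted p = 4.2e-05). Auxin response factor 9 (FtPinG0008597700.01, chromosome 3) had the opposite course, with 174, 195 and 175 CPM at initial maturity, against 78.9, 26.2 and 26.7 CPM in green fruit (log2 fold change 2.04, SE 0.40, adjusted p = 0.00186). None of these genes had overlapping groups, which was a condition of naming them.

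**Figure D4:**
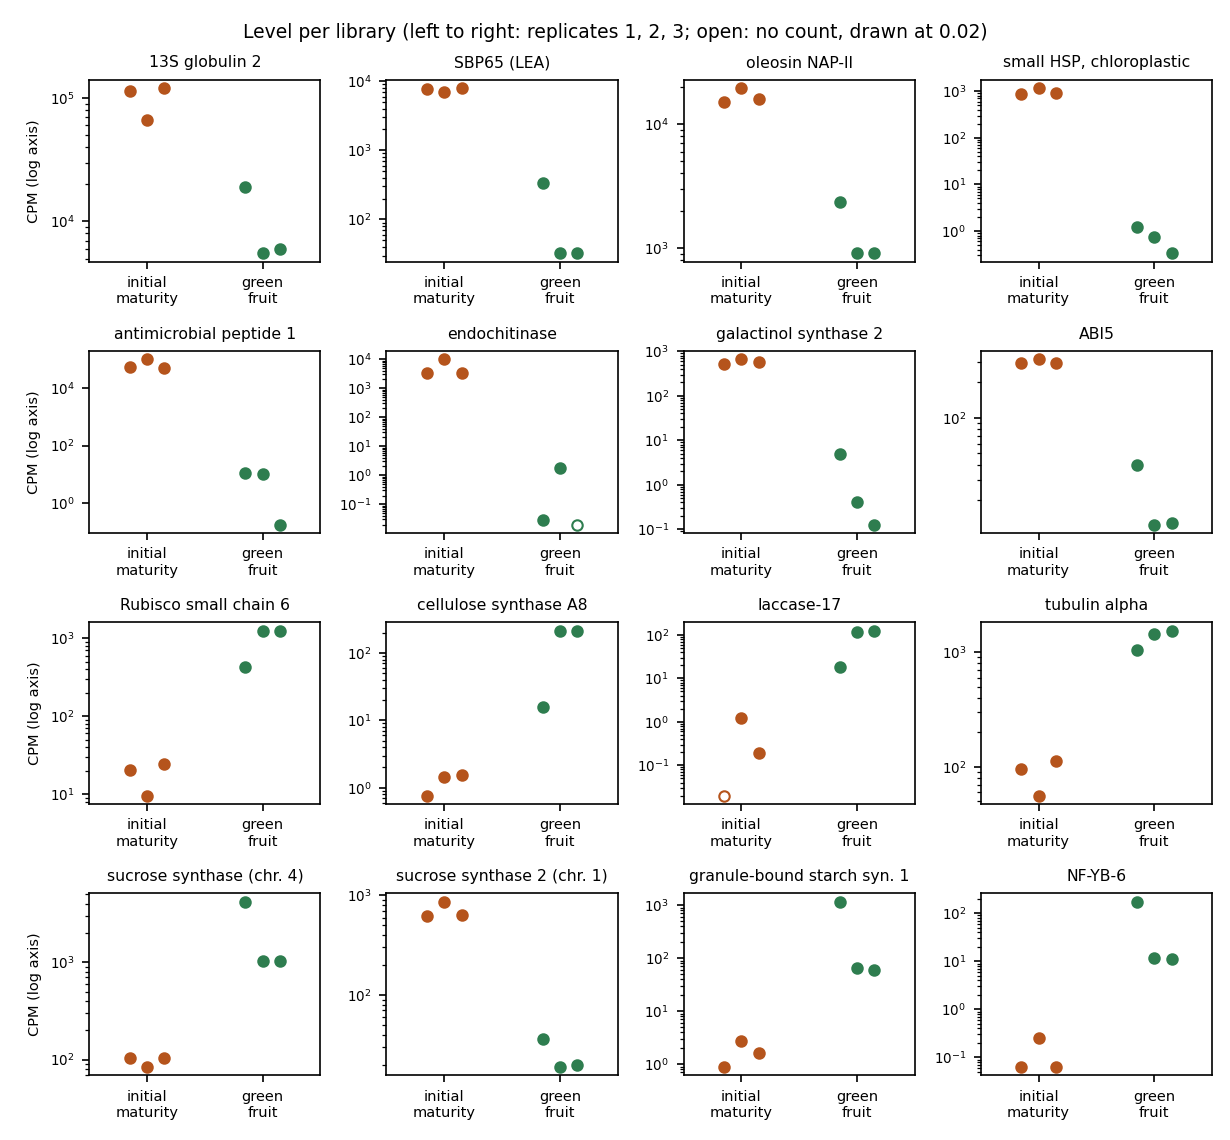
CPM of 16 genes in the 3 initial maturity libraries (left) and the 3 green fruit libraries (right) of each panel, on log axes. Points are libraries 1, 2 and 3 from left to right, and open points are libraries with no count. In every panel the groups do not overlap, which was a condition of choosing the genes. Green fruit library 1 is often set apart from libraries 2 and 3, as in granule-bound starch synthase 1 (1165 CPM against 65 and 60 CPM).

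Genes of photosynthesis fell almost without exception. Of 62 genes tested (of 93 matched) 1 rose and 57 fell, with a median of -5.28, and the list held 0.0194, 0.0171 and 0.0206% of counts at initial maturity, against 0.499, 1.55 and 1.6% in green fruit. A Rubisco small chain gene (FtPinG0008981900.01, chromosome 7, 5588947 to 5590319), of the enzyme that fixes carbon dioxide, had 20.6, 9.54 and 24.1 CPM at initial maturity, against 433, 1258 and 1258 CPM in green fruit (log2 fold change -5.76, SE 0.55, adjusted p = 3.4e-05). Its neighbour FtPinG0008982400.01, a copy that may share reads, had 9.68, 4.17 and 12.1 CPM at initial maturity, against 74.2, 616 and 680 CPM in green fruit (log2 fold change -5.72, SE 0.83, adjusted p = 3.4e-04). Glyceraldehyde-3-phosphate dehydrogenase A of the chloroplast (FtPinG0001786900.01, chromosome 3), an enzyme of carbon fixation that its name placed in the glycolysis list, had 13.9, 4.36 and 14.4 CPM at initial maturity, against 115, 556 and 586 CPM in green fruit (log2 fold change -5.26, SE 0.72, adjusted p = 2.4e-04). Green fruit library 1 was the lowest of its stage in all 3 genes, and every initial maturity library was lower still. The risen gene was a weakly counted copy of photosystem I subunit III (FtPinG0000290400.01), with 1.85, 1.64 and 2 CPM at initial maturity, against 0.853, 0.694 and 0.459 CPM in green fruit (log2 fold change 1.45, SE 0.34, adjusted p = 0.00503), a call lost with close pairs added together and with library totals only.

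Chlorophyll genes fell as well. Of 31 genes of chlorophyll synthesis and breakdown 2 rose and 22 fell (median -1.51). The magnesium-protoporphyrin cyclase gene (FtPinG0009720600.01, chromosome 7), which closes the fifth ring of the pigment, had 1.47, 1.01 and 1.61 CPM at initial maturity, against 26.7, 70.4 and 72.5 CPM in green fruit (log2 fold change -5.37, SE 0.42, adjusted p = 1.5e-05). Both risen genes matched pheophytinase, which takes part in breakdown, and one of them (FtPinG0009382300.01, chromosome 1) had 101, 116 and 104 CPM at initial maturity, against 35.6, 35.5 and 33.4 CPM in green fruit (log2 fold change 1.62, SE 0.14, adjusted p = 2.1e-05; with library totals only it did not pass). Values of this gene were close to equal within each stage.

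Genes of cell division and of spindles fell more often than they rose. Of 148 cell division genes 25 rose and 74 fell (median -0.69), of 65 histone genes 7 rose and 44 fell (-1.95), and of 121 genes for kinesins and tubulins, which build the spindle and the cell plate, 6 rose and 78 fell (-1.58). With TMM, the summed level did not follow these counts for cell division and histones. Cell division genes together had 2625 ± 90.3 CPM at initial maturity and 2109 ± 392 CPM in green fruit. Histone genes had 3394 ± 553 CPM at initial maturity and 3003 ± 1311 CPM in green fruit, while kinesins and tubulins had 1394 ± 214 CPM at initial maturity and 4510 ± 514 CPM in green fruit (mean ± SD, n = 3 each). As a share of library counts, without TMM, cell division and histones were lower in every initial maturity library. Cell division genes held 0.182, 0.173 and 0.178% of counts at initial maturity, against 0.384, 0.345 and 0.341% in green fruit. Histone genes held 0.214, 0.256 and 0.217% at initial maturity, against 0.677, 0.409 and 0.41% in green fruit. The Aurora-3 kinase gene (FtPinG0002033200.01, chromosome 5), of chromosome segregation, had 4.4, 4.42 and 4.38 CPM at initial maturity, against 35.9, 135 and 130 CPM in green fruit (log2 fold change -4.51, SE 0.51, adjusted p = 8.4e-05). An alpha tubulin gene (FtPinG0005325300.01, chromosome 3, 55642995 to 55645258) had 96.4, 56.1 and 112 CPM at initial maturity, against 1034, 1446 and 1541 CPM in green fruit (log2 fold change -3.93, SE 0.37, adjusted p = 3.4e-05). In both, all green fruit libraries were above all initial maturity libraries, although another gene matched to Aurora-3 was among the risen. Among the risen members of the division list was CDC48 homolog D (FtPinG0007297000.01, chromosome 5), with 281, 372 and 301 CPM at initial maturity, against 42.8, 34.1 and 38.1 CPM in green fruit (log2 fold change 3.05, SE 0.21, adjusted p = 8.0e-06). CDC48 is a segregase that extracts proteins for the proteasome as well as a cell cycle protein. The linker histone gene H1.2 (FtPinG0005744000.01, chromosome 5) rose, with 371, 499 and 402 CPM at initial maturity, against 143, 86.3 and 81.2 CPM in green fruit (log2 fold change 2.03, SE 0.27, adjusted p = 1.9e-04). Without the libraries that stand apart, 46 division genes were higher and 81 lower, and 16 histone genes were higher and 47 lower. Kinesins and tubulins then had 11 higher and 86 lower, and with close pairs added together 2 higher and 67 lower.

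Genes of woody cell walls fell in most members. Of 46 genes of secondary wall cellulose and xylan 5 rose and 38 fell (median -3.15). Their share was 0.0228, 0.0147 and 0.0231% of counts at initial maturity, against 0.105, 0.415 and 0.432% in green fruit. Cellulose synthase A8 (FtPinG0002305900.01, chromosome 8, 1110032 to 1114099), a subunit of the complex for woody walls, had 0.764, 1.45 and 1.55 CPM at initial maturity, against 15.8, 212 and 216 CPM in green fruit (log2 fold change -6.88, SE 1.01, adjusted p = 3.6e-04). Cellulose synthase A4 (FtPinG0000375900.01, chromosome 1, 50672161 to 50676771) had 3.18, 4.36 and 3.61 CPM at initial maturity, against 25.2, 260 and 273 CPM in green fruit (log2 fold change -5.64, SE 0.87, adjusted p = 4.7e-04). Green fruit library 1 had the lowest share of this list in its stage. In both synthases it was below libraries 2 and 3 while above all initial maturity libraries. Its share of hull markers was also the lowest, but both synthases are members of that list too, so this is not a separate result.

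Lignin genes fell more often than they rose, most of all laccases. Risen members were 30.6% of class III peroxidases and 30% of genes of phenylpropanoid entry and monolignols, near the 28.3% of all genes. Fallen members were 55.6% and 44.3% of these lists, against 32.5% of all genes. Laccases, which couple lignin monomers in the wall, had 2 of 19 members higher and 14 lower, and with -5.72 the lowest median of the lists other than the green tissue markers; 11 of 30 matched genes did not pass the filter. Laccase-17 (FtPinG0008390000.01, chromosome 1, 63450280 to 63453490) had 0, 1.2 and 0.193 CPM at initial maturity, against 18.6, 117 and 126 CPM in green fruit (log2 fold change -7.53, SE 1.03, adjusted p = 2.5e-04). Laccase-4 (FtPinG0006531100.01, chromosome 8, 16454174 to 16456549) had 0.318, 1.01 and 0.644 CPM at initial maturity, against 8.55, 84.8 and 95.1 CPM in green fruit (log2 fold change -6.57, SE 1.03, adjusted p = 5.2e-04). Both are known to act in lignin of Arabidopsis stems, and both were near 0 in all initial maturity libraries. Putative laccase-9 (FtPinG0001199800.01, chromosome 7, 37735768 to 37739227) was the reverse, with 178, 123 and 180 CPM at initial maturity, against 0.66, 0.265 and 0.128 CPM in green fruit (log2 fold change 8.85, SE 0.65, adjusted p = 1.0e-05).

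Class III peroxidases, which also oxidise lignin monomers, had 11 of 36 members higher and 20 lower (median -1.58; 68 of 104 matched genes did not pass the filter). Cationic peroxidase 1 (FtPinG0003135700.01, chromosome 5) had 0.0637, 1.71 and 0.837 CPM at initial maturity, against 50.5, 178 and 193 CPM in green fruit (log2 fold change -7.33, SE 0.93, adjusted p = 1.6e-04), and peroxidase 64 (FtPinG0009459200.01, chromosome 1) had 1.78, 2.02 and 2.38 CPM at initial maturity, against 34.1, 142 and 144 CPM in green fruit (log2 fold change -5.69, SE 0.56, adjusted p = 4.2e-05). Both fallen peroxidases were lowest in library 1 among the green fruit libraries. Peroxidase 12 (FtPinG0004087700.01, chromosome 3) was high in ripe seed, with 317, 185 and 344 CPM at initial maturity, against 22.6, 8.94 and 11.4 CPM in green fruit (log2 fold change 4.30, SE 0.42, adjusted p = 4.1e-05). The genes of phenylpropanoid entry and monolignol synthesis had 21 of 70 higher and 31 lower. Phenylalanine ammonia-lyase (FtPinG0005713400.01, chromosome 5), the entry enzyme, had 42, 35.9 and 40.5 CPM at initial maturity, against 267, 392 and 397 CPM in green fruit (log2 fold change -3.16, SE 0.35, adjusted p = 8.0e-05). A gene matched to cinnamoyl-CoA reductase 1 on chromosome 8 (FtPinG0009234700.01) had 88.1, 33.4 and 96.7 CPM at initial maturity, against 513, 1554 and 1611 CPM in green fruit (log2 fold change -4.08, SE 0.56, adjusted p = 2.5e-04). Another with the same match on chromosome 3 (FtPinG0000771500.01) had 95.1, 183 and 97.8 CPM at initial maturity, against 24.3, 18.9 and 17.6 CPM in green fruit (log2 fold change 2.63, SE 0.28, adjusted p = 5.9e-05). The stages did not overlap in any of the genes named here, which was a condition of naming them.

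Genes of expanding walls fell too. Of 111 genes for expansins, xyloglucan and primary wall cellulose 20 rose and 68 fell (median -1.40), and of 108 pectin genes 22 rose and 56 fell (-1.18). Xyloglucan endotransglucosylase/hydrolase 23 (FtPinG0003957900.01, chromosome 2, 59087487 to 59089303), which cuts and rejoins xyloglucan, rose, with 779, 947 and 829 CPM at initial maturity, against 24, 3.75 and 4.16 CPM in green fruit (log2 fold change 6.32, SE 0.78, adjusted p = 1.4e-04). Expansin-A10 (FtPinG0005157100.01, chromosome 3), a wall-loosening protein, had 311, 238 and 328 CPM at initial maturity, against 136, 32.7 and 33.8 CPM in green fruit (log2 fold change 2.12, SE 0.52, adjusted p = 0.006), a call lost with close pairs added together and with library totals only. Pectinesterase 2 (FtPinG0000270200.01, chromosome 1) had 272, 136 and 270 CPM at initial maturity, against 23.5, 11.4 and 10.9 CPM in green fruit (log2 fold change 3.88, SE 0.51, adjusted p = 1.9e-04). A gene matched to the polygalacturonase subunit JP650 (FtPinG0000161500.01, chromosome 1) was high in green fruit, with 3.44, 3.73 and 5.86 CPM at initial maturity, against 32.1, 99.5 and 98 CPM in green fruit (log2 fold change -4.14, SE 0.46, adjusted p = 7.5e-05).

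Some single genes of plant surfaces and fibre walls, chosen singly and not as a list, were much lower as well. The lipid-transfer gene EARLI 1 (FtPinG0002033500.01, chromosome 5, 29716996 to 29717640), of a family exported to the cuticle and wall, was the matched fallen gene with the highest mean CPM in green fruit, with 23.4, 11.5 and 24.3 CPM at initial maturity, against 1101, 4518 and 4333 CPM in green fruit (log2 fold change -7.39, SE 0.69, adjusted p = 3.1e-05). ECERIFERUM 1 (FtPinG0009513400.01, chromosome 7), which makes wax alkanes, had 1 count in all at initial maturity and 6407 counts in green fruit, a ratio of 2420 with a counting interval (95%, exact) of 434 to 95613, which covers counting error only and not the spread between libraries. The lowest green fruit library for EARLI 1 and ECERIFERUM 1 was library 1. WALLS ARE THIN 1 (FtPinG0006548000.01, chromosome 1), needed for woody fibre walls in Arabidopsis, had 0.127, 0.126 and 0.129 CPM at initial maturity, against 22.6, 13.1 and 13.7 CPM in green fruit (log2 fold change -6.96, SE 0.40, adjusted p = 4.4e-06), and in it green fruit library 1 was the highest.

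Flavonoid enzymes, which lead to rutin and to the tannins of the seed coat, had 8 of 34 members higher and 17 lower, with a median of -0.90. Flavanone 3-dioxygenase (FtPinG0006662600.01, chromosome 6), a shared early step, had 75.2, 17.2 and 77.7 CPM at initial maturity, against 243, 408 and 450 CPM in green fruit (log2 fold change -2.69, SE 0.52, adjusted p = 0.00168). Leucoanthocyanidin reductase (FtPinG0002428800.01, chromosome 1), of tannin synthesis, had 234, 174 and 251 CPM at initial maturity, against 60.1, 28.6 and 28.2 CPM in green fruit (log2 fold change 2.49, SE 0.33, adjusted p = 2.0e-04). A flavonol synthase gene (FtPinG0006907100.01, chromosome 7) had 290, 175 and 313 CPM at initial maturity, against 590, 208 and 239 CPM in green fruit and did not pass (log2 fold change -0.41, adjusted p = 0.4), though it fell with library totals only. Its groups overlapped, as green fruit library 1 was the highest of all 6 libraries, and its mean at discoloration was 635 CPM. With close pairs added together 7 members of this list were higher and 9 lower.

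Sugar entry and starch genes changed by member rather than by family. Of 55 genes of sucrose transport, cleavage and synthesis 20 rose and 21 fell, with a median of 0.04 (-1.31 with library totals only, where 8 rose and 35 fell). The sucrose synthase gene of green fruit (FtPinG0005125200.01, chromosome 4, 42622063 to 42627003), which splits sucrose for growth and starch, had 103, 84.4 and 103 CPM at initial maturity, against 4211, 1035 and 1042 CPM in green fruit (log2 fold change -4.44, SE 0.60, adjusted p = 2.3e-04). Sucrose synthase 2 (FtPinG0008844900.01, chromosome 1, 54331613 to 54338020) had 617, 867 and 632 CPM at initial maturity, against 36.5, 19 and 20 CPM in green fruit (log2 fold change 4.81, SE 0.36, adjusted p = 1.2e-05). The chromosome 4 gene was thus highest in green fruit library 1 and the chromosome 1 gene in initial maturity library 2, with no overlap of the stages in either. Among sugar exporters, SWEET1 (FtPinG0009672300.01, chromosome 2) had 182, 240 and 180 CPM at initial maturity, against 33.9, 19.2 and 21.7 CPM in green fruit (log2 fold change 3.01, SE 0.26, adjusted p = 2.1e-05) and SWEET13 (FtPinG0006373800.01, chromosome 8) had 1.59, 2.59 and 0.773 CPM at initial maturity, against 103, 28.6 and 23.7 CPM in green fruit (log2 fold change -4.96, SE 0.79, adjusted p = 5.8e-04).

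Starch synthesis had 6 of 26 genes higher and 10 lower, with a median of -0.46. A granule-bound starch synthase 1 gene (FtPinG0009838000.01, chromosome 4, 6323422 to 6327187), which makes amylose, had 0.892, 2.78 and 1.61 CPM at initial maturity, against 1165, 65 and 60 CPM in green fruit (log2 fold change -7.93, SE 1.34, adjusted p = 8.0e-04). A large subunit of ADP-glucose pyrophosphorylase (FtPinG0007321400.01, chromosome 2), the entry to starch, had 32.4, 73.1 and 34.8 CPM at initial maturity, against 6.46, 7.47 and 6.61 CPM in green fruit (log2 fold change 2.77, SE 0.38, adjusted p = 2.3e-04). Of 32 starch breakdown genes 11 rose and 12 fell, while with library totals only 1 rose and 22 fell, and with close pairs added together 5 rose and 6 fell. The plastid phosphorylase gene (FtPinG0006277900.01, chromosome 3) had 18, 10.4 and 17.4 CPM at initial maturity, against 386, 61.7 and 61.8 CPM in green fruit (log2 fold change -3.47, SE 0.70, adjusted p = 0.00218). An alpha-amylase gene (FtPinG0005846500.01, chromosome 7, 40185271 to 40188319), of the enzymes that open starch grains, had 125, 138 and 133 CPM at initial maturity, against 1.18, 1.08 and 0.766 CPM in green fruit (log2 fold change 7.02, SE 0.27, adjusted p = 1.1e-06), with 24.8 CPM at discoloration. The synthase and the phosphorylase were far higher in green fruit library 1 than in libraries 2 and 3, while the amylase was even across the libraries of each stage. Endosperm markers were also highest in that library. Granule-bound starch synthase is itself among those markers, so this is not a separate result. Without the libraries that stand apart, 12 genes of synthesis were higher and 12 lower, and 17 of breakdown were higher and 14 lower.

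Genes of glycolysis and fermentation fell more often than they rose, while none of the glyoxylate cycle and lipases fell in the TMM fit of all 9 libraries. Of 71 genes of glycolysis and fermentation 17 rose and 39 fell (median -0.81). Alcohol dehydrogenase 1 (FtPinG0009670800.01, chromosome 2), which sustains energy supply without oxygen, had 657, 790 and 685 CPM at initial maturity, against 167, 91.1 and 96 CPM in green fruit (log2 fold change 2.59, SE 0.30, adjusted p = 8.8e-05). Phosphofructokinase 2 (FtPinG0006448700.01, chromosome 2) had 339, 428 and 338 CPM at initial maturity, against 67.4, 13.4 and 12 CPM in green fruit (log2 fold change 3.57, SE 0.64, adjusted p = 0.00109). Of 9 genes of the glyoxylate cycle and lipases, which turn oil to sugar, 5 rose and none fell (median 1.01). With library totals only 0 rose and 3 fell (median -0.31), and with close pairs added together 1 rose. Without the libraries that stand apart, 6 rose and 3 fell. Isocitrate lyase (FtPinG0003753100.01, chromosome 2), the marker enzyme of that cycle, had 781, 602 and 823 CPM at initial maturity, against 329, 76.2 and 82.8 CPM in green fruit (log2 fold change 2.18, SE 0.54, adjusted p = 0.00644), a call lost with library totals only and with close pairs added together. All 3 enzymes were higher in each initial maturity library than in green fruit library 1, the highest of its stage.

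Proteases of seeds and senescence had 5 of 41 genes higher and 20 lower, yet the members with the highest CPM at initial maturity rose. Cysteine proteinase 1 (FtPinG0002253700.01, chromosome 8, 2225418 to 2227311) had 4227, 6335 and 4248 CPM at initial maturity, against 251, 146 and 137 CPM in green fruit (log2 fold change 4.79, SE 0.44, adjusted p = 2.8e-05). Vacuolar-processing enzyme (FtPinG0005279000.01, chromosome 6, 30831800 to 30834048), which cuts globulin precursors into their mature chains, had 1050, 995 and 1107 CPM at initial maturity, against 115, 60.8 and 63.6 CPM in green fruit (log2 fold change 3.72, SE 0.32, adjusted p = 2.2e-05). RD21a (FtPinG0006711700.01, chromosome 7), a senescence-linked protease, fell, with 55.7, 11.4 and 62.1 CPM at initial maturity, against 71.4, 395 and 385 CPM in green fruit (log2 fold change -2.72, SE 0.72, adjusted p = 0.00921). Another gene matched to vacuolar-processing enzyme was among the fallen. Both risen proteases named here kept clear of the green fruit range by a wide margin, whereas RD21a, whose call was lost with close pairs added together, was low in initial maturity library 2 and green fruit library 1.

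Most cytosolic ribosomal protein genes did not pass the test with TMM, and most fell with library totals only, as most of all genes did. Of 278 genes 23 rose (8.27%), 12 fell and 243 did not pass, with a median of 0.23 (-1.07 with library totals only, where 3 rose and 212 fell). The number of risen members depended on green fruit library 1, which had the highest share: the list held 2.27, 2.87 and 2.29% of counts at initial maturity, against 6.86, 3.66 and 3.66% in green fruit. Without that library 194 members rose, and without all 3 libraries that stand apart 220 rose and 29 fell. With close pairs added together 4 rose and 7 fell, without initial maturity library 2 10 rose, and without green fruit library 2 or 3 9 rose. The 60S protein L10 gene (FtPinG0000273400.01, chromosome 1) had 448, 719 and 466 CPM at initial maturity, against 323, 179 and 181 CPM in green fruit (log2 fold change 1.26, SE 0.31, adjusted p = 0.00653), a call lost with close pairs added together, and with library totals only its log2 fold change was -0.06. The L3 gene (FtPinG0001672100.01, chromosome 7) had 583, 606 and 579 CPM at initial maturity, against 675, 268 and 273 CPM in green fruit and did not pass (log2 fold change 0.54, adjusted p = 0.213), as green fruit library 1 exceeded all initial maturity libraries, and it rose without that library (log2 fold change 1.13).

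Genes of the proteasome and autophagy, which remove proteins and organelles, had 28 of 77 members higher and 8 lower with TMM (median 0.27). With library totals only, where most of all genes fell, 3 rose and 54 fell (median -1.06). The median of the list lay 0.33 above that of all genes on both scales. The autophagy gene ATG8f (FtPinG0004795700.01, chromosome 8) had 98.3, 176 and 95.4 CPM at initial maturity, against 42.9, 38.2 and 36.8 CPM in green fruit (log2 fold change 1.65, SE 0.24, adjusted p = 3.5e-04; with library totals only it did not pass). Without the libraries that stand apart 50 members of the list were higher and 13 lower, and with close pairs added together 5 were lower.

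Aquaporins, the water channels of membranes, mostly fell, but a seed type rose. Of 32 genes tested 5 rose and 20 fell, with a median of -2.03, but the total of the list was not lower. With TMM its summed level was 8833 ± 1481 CPM at initial maturity and 3210 ± 167 CPM in green fruit (mean ± SD, n = 3 each). As a share of library counts, without TMM, it held 0.542, 0.666 and 0.577% at initial maturity, against 0.504, 0.555 and 0.587% in green fruit. The seed-type vacuolar channel TIP3-2 (FtPinG0005321900.01, chromosome 2, 41076191 to 41077796) had 6574, 9455 and 7169 CPM at initial maturity, against 1579, 297 and 327 CPM in green fruit (log2 fold change 3.40, SE 0.72, adjusted p = 0.00281; not past the threshold with close pairs added together). This 1 gene had a mean of 7732 of the 8833 summed CPM of the list at initial maturity, and 735 of the 3210 in green fruit. The plasma membrane channel PIP1-4 on chromosome 3 (FtPinG0001689700.01) had 74.1, 77 and 67.9 CPM at initial maturity, against 183, 436 and 423 CPM in green fruit (log2 fold change -2.25, SE 0.32, adjusted p = 2.8e-04), and PIP2-2 (FtPinG0000824700.01, chromosome 2) had 135, 93.8 and 140 CPM at initial maturity, against 298, 357 and 364 CPM in green fruit (log2 fold change -1.47, SE 0.22, adjusted p = 3.8e-04). TIP3-2 was thus high in all initial maturity libraries and both plasma membrane channels in all green fruit libraries, although other genes matched to PIP1-4 and PIP2-2 were among the risen, and the shares of the list overlapped between the stages.

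The counts of the lists depended on the setting. With library totals only, fewer members of the rising lists rose and more fell. Storage proteins then had 9 higher and 1 lower and LEA genes 14 higher and 6 lower. Oil body genes had 15 higher and 10 lower. Small heat shock proteins had 21 higher and 6 lower, and protease inhibitors 14 higher and 9 lower. On that scale 18 of the larger chaperones rose and 27 fell, 8 raffinose and trehalose genes rose and 17 fell, and 4 antioxidant genes rose and 24 fell. Lists with more members lower than higher leaned further that way. Fatty acid synthesis had 3 higher and 41 lower, and auxin genes 11 higher and 101 lower. Cell division had 7 higher and 128 lower, histones 2 higher and 58 lower, and kinesins and tubulins 2 higher and 115 lower. Genes of expanding walls had 7 higher and 93 lower, and pectin genes 15 higher and 81 lower. Secondary wall genes had 1 higher and 44 lower, peroxidases 5 higher and 23 lower, and monolignol genes 12 higher and 49 lower. Flavonoid enzymes had 5 higher and 23 lower, and starch synthesis 1 higher and 20 lower. Glycolysis had 11 higher and 58 lower, proteases 4 higher and 36 lower, and aquaporins 2 higher and 26 lower. With close pairs added together, 5 fatty acid synthesis genes rose and 23 fell, 7 antioxidant genes rose and 8 fell, and 22 defence genes rose and 11 fell. Cell division then had 16 higher and 60 lower, and histones 3 higher and 41 lower. In that fit 13 expanding wall genes rose and 51 fell, 1 secondary wall gene rose and 28 fell, and 6 peroxidases rose and 19 fell. Aquaporins had 3 higher and 19 lower, and monolignol genes 16 higher and 19 lower. Flavonoid genes had 7 higher and 9 lower, and proteases 4 higher and 10 lower. Without the libraries that stand apart, 16 LEA genes rose and 5 fell.

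Some genes were off at one end and on at the other, taking off as no count in any of the 3 libraries of a stage and on as at least 1 CPM in each of the 3 libraries of the other. By these limits 39 genes were on at initial maturity and off in green fruit, and 76 were off at initial maturity and on in green fruit. As their levels chose them, no test is given, and folds are lower bounds against a floor of 3 counts per library (0.0734 CPM on average in green fruit and 0.191 CPM at initial maturity, where the TMM-scaled library sizes were smaller). The 39 genes that came on had mean levels of 1.25 to 65.1 CPM (median 3.11), and were at least 17.1 to 886-fold higher at initial maturity. The 76 that went off had 1.1 to 39.2 CPM in green fruit (median 3.33), at least 5.76 to 205-fold lower at initial maturity. Just inside and outside the limit, the lowest library of a gene that came on was at 1.030 and 0.885 CPM, and of a gene that went off at 1.018 and 0.995 CPM.

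At discoloration most of these genes lay between the limits, a class that takes in any count short of 1 CPM in each library. Of those that came on, 10 already had 1 CPM in each discoloration library, 2 had no count and 27 lay between. Of those that went off, 4 still had 1 CPM in each, 5 had none and 67 lay between. Some of the 67 were near 0 by then, and others were not. FtPinG0003148700.01 had a mean of 0.0304 CPM at discoloration and peroxidase 64 (FtPinG0005774000.01) 0.0948 CPM, whereas IQ-DOMAIN 14 (FtPinG0001537100.01) had 1.72 CPM. Genes of the authors' own set, outside the reference annotation, were 15 of the 39 that came on and 1 of the 76 that went off.

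The strongest gene to come on was ERF098 (FtPinG0009155900.01, chromosome 7, 47441270 to 47441668), an ethylene-responsive transcription factor, with 52.5, 92.3 and 50.4 CPM at initial maturity, at least 886-fold higher. A gene matched to the poppy enzyme reticuline 7-O-methyltransferase (FtPinG0006556600.01, chromosome 1), which methylates alkaloids in that plant, had 25.6, 35.8 and 27.2 CPM, at least 402-fold higher. Beta-glucosidase 17 (FtPinG0003438100.01, chromosome 6), of the enzymes that release sugars from glucosides, had 31.4, 6.19 and 32.3 CPM, at least 317-fold higher. Library 2 was the highest for ERF098 and the methyltransferase and the lowest for the glucosidase. Nicotinamidase 1 (FtPinG0005706600.01, chromosome 5), of the NAD salvage route, had 8.98, 22.8 and 7.15 CPM and a gene matched to vinorine synthase (FtPinG0009489000.01, chromosome 1) had 18.2, 2.65 and 18.7 CPM. Library 2 was the highest for nicotinamidase and the lowest for the vinorine synthase match. Next by level was an own gene of the authors with no match (Novel01341).

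The strongest gene to go off was IQ-DOMAIN 14 (FtPinG0001537100.01, chromosome 4, 43812231 to 43814508), of a family of calmodulin-binding proteins at microtubules, with 12.3, 52 and 53.2 CPM in green fruit, at least 205-fold lower at initial maturity. A peroxidase 64 gene on chromosome 6 (FtPinG0005774000.01) had 3.88, 32.2 and 29.6 CPM, at least 114-fold lower. Both were lowest in green fruit library 1, well below libraries 2 and 3. A gene without a match (FtPinG0007540900.01, chromosome 4) had 64.9, 5.18 and 5.1 CPM, nearly all of it in library 1, and another (FtPinG0000367400.01, chromosome 1) had 15, 12 and 11.8 CPM. With no count in the defensin gene FtPinG0008760700.01 and in the uncharacterised FtPinG0008925500.01 either, these are the 6 most abundant of their kind.

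**Figure D5:**
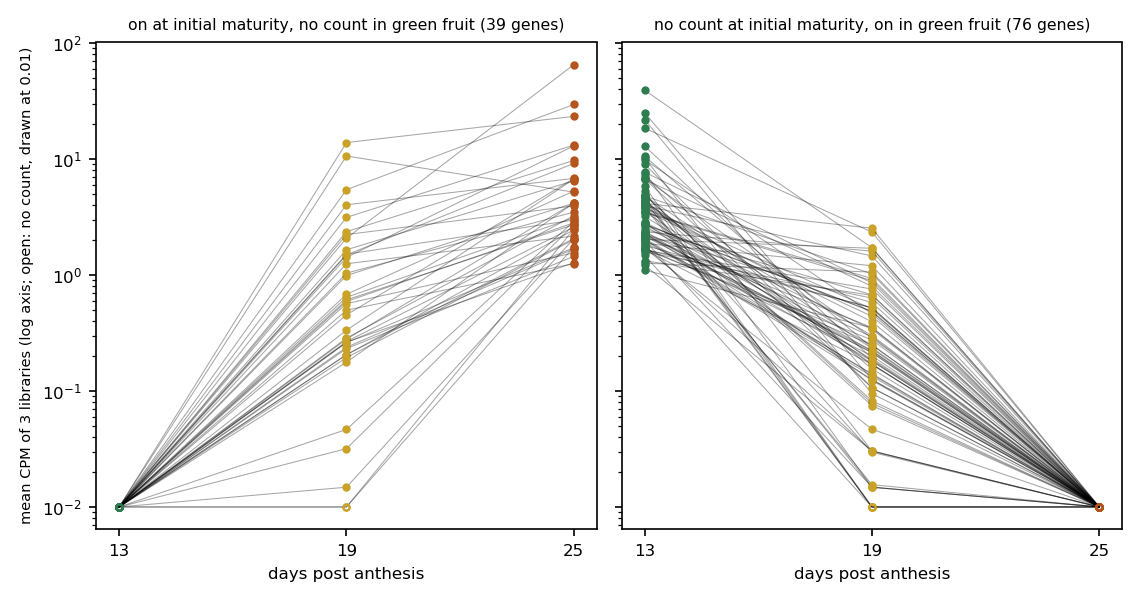
Mean CPM of 3 libraries at 13, 19 and 25 days post anthesis for the 39 genes on at initial maturity with no count in green fruit (left) and the 76 genes with no count at initial maturity that were on in green fruit (right), on log axes. Each line is a gene and open points are stages with no count. Most lines of both panels pass through a middle level at 19 days.

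The counts of such genes depended on the limits and on single libraries. With off taken as under 0.1 CPM in each library, 124 genes came on and 198 went off. With on taken as 5 CPM, 8 came on and 8 went off. Without green fruit library 1, 80 came on and 139 went off, and without initial maturity library 2 or 3, 138 and 131 went off. With library totals only 135 went off.

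Genes without a Swiss-Prot match changed nearly as often as all genes. Of 4556 such gene models tested 1301 rose and 1369 fell (58.6% called), and of 1487 own genes of the authors 495 rose and 317 fell (54.6%). The risen ones with the highest levels reached those of storage protein genes. FtPinG0002626600.01 (chromosome 7) had 51603, 54477 and 53801 CPM at initial maturity, against 7993, 1904 and 2025 CPM in green fruit (log2 fold change 3.75, SE 0.90, adjusted p = 0.00542), and FtPinG0004112300.01 (chromosome 7) had 11942, 12257 and 12032 CPM at initial maturity, against 2866, 2337 and 2104 CPM in green fruit (log2 fold change 2.31, SE 0.54, adjusted p = 0.00492). Both lost their call with close pairs added together, and FtPinG0004112300.01 also with library totals only. FtPinG0003341300.01 (chromosome 8) had 15534, 10165 and 16082 CPM at initial maturity, against 111, 22 and 15.3 CPM in green fruit (log2 fold change 8.14, SE 1.01, adjusted p = 1.4e-04). Of the green fruit libraries, library 1 was the highest in all of them. The fallen ones with the highest levels were FtPinG0006424400.01 on chromosome 8, with 42, 55.9 and 49.2 CPM at initial maturity, against 420, 1448 and 1577 CPM in green fruit (log2 fold change -4.55, SE 0.69, adjusted p = 4.2e-04), its neighbour FtPinG0006424100.01, with 247, 133 and 264 CPM at initial maturity, against 948, 1201 and 1248 CPM in green fruit (log2 fold change -2.40, SE 0.35, adjusted p = 3.5e-04), and FtPinG0002125600.01 on chromosome 3, with 114, 45 and 128 CPM at initial maturity, against 565, 1459 and 1508 CPM in green fruit (log2 fold change -3.62, SE 0.52, adjusted p = 3.1e-04). The stages did not overlap in any gene named here, which is no separate result.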

How the data were processed

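RNA-seq libraries of whole seeds at 3 stages, 3 each, were compared from the deposited tables. Raw counts per gene were deposited by the authors, as were FPKM (fragments scaled by gene length and library size) and gene lengths and positions. A comparison table of the authors holds scaled mean counts (a signal, not whole reads), fold values and adjusted p-values, per the file headers; its log2 fold column had damaged cells, so directions there were read from the scaled means. Bowtie2 2.0.6 and TopHat2 2.0.12 are named in the submitters' processing notes; the counting program, build and annotation were not given in the sources used here. Strand is not marked by the library kit named in the labels. 9 columns of per-sample values in each of the 2 variant tables matched no sample and were not used.

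Counts were tested with edgeR 4.0.16 (R 4.3.3, limma 3.58.1): filterByExpr (minimum count 10) over all 9 libraries, TMM, quasi-likelihood F test, Benjamini-Hochberg adjustment over all genes tested, threshold 0.05. The SE is the log2 fold change divided by the root of F. All 3 stages shared 1 estimate of spread. The script was tested on simulated data. Gene lists were drawn by words in match names. Alternatives included DESeq2 1.42.0, limma-voom, other scalings and filters, and leaving out libraries. Named genes passed the test with stages not overlapping and were the 10 highest and 10 lowest log2 fold changes (at least 10 CPM), the 8 highest levels in each direction, the 2 highest in each direction per list with the highest member not passing, the 6 highest of the off and on genes and the 3 highest without a match; those described are a selection of these. The lists and genes were chosen with earlier results of these data known.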

Additional observations from a re-analysis of the deposited data

How the results depend on the processing

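Of the 14361 genes called, counts were 13872 with a replicate block (6522 higher), 14383 with DESeq2 size factors, 14394 with TMM computed without the 100 most-counted genes, 14703 with DESeq2's test, 14030 with limma-voom, 14723 with no filter, 13528 with a stricter filter, 12912 with the 6 libraries alone and 19353 without the 3 libraries that stand apart (9592 higher). They were 12438 to 16664 with 1 library left out. Larger moves came with close pairs added together (9183 called, 4095 higher, 5088 lower), with a test against a fold of 2 (7352, 2988 and 4364) and with library totals only (2093 higher, 17426 lower). The off and on counts, 39 and 76, became 124 and 198 with off as under 0.1 CPM, 8 and 8 with on as 5 CPM, and 135 off at initial maturity with totals only. With 1 library left out they ranged from 40 to 80 and from 81 to 139. The difference in share of the most-counted genes was 28.1 percentage points for 10 genes and 39 for 50, against 33.6 for 20. Library totals lowered the log2 fold changes of all genes by 1.33 in the median. Of the genes described in the report, fold changes turned round in 5: FtPinG0000621200.01 (-0.06), FUS3 FtPinG0003428600.01 (-1.0), L10 FtPinG0000273400.01 (-0.06) and L3 FtPinG0001672100.01 (-0.74) with library totals only, FUS3 also with close pairs (-0.09) and with 1 library left out (-0.05 to 1.11, the negative values without green fruit library 2 or 3), and flavonol synthase FtPinG0006907100.01 with 1 library left out (-0.68 to 0.22, the positive value without green fruit library 1) and without the libraries that stand apart (0.44). The cause was not tested. Deviations of same-numbered libraries from their stage means correlated at -0.108, -0.138 and 0.127, so the numbers were not taken to pair the libraries; with 1 library apart in each stage, such correlations do not settle it. Of the genes named, trypsin inhibitor 2c FtPinG0008672700.01 lost its call with the replicate block. Counts of 0 to 3 per library limit what can be said of genes called off.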

Other observations

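Gene families outside the lists, chosen with earlier results of these data known, are given by their counts, to be read against 28.3% of all genes higher and 32.5% lower. Leucine-rich repeat receptor kinases, which sense peptides and microbes at the cell surface, had 17 of 180 members higher at initial maturity and 92 lower, with a median log2 fold change of -0.97. GDSL esterases, many of which act on cutin and other surface lipids, had 13 of 67 higher and 37 lower (median -1.61), and lipid-transfer proteins 14 of 38 higher and 21 lower (-1.15). Among transcription factors, bHLH genes had 19 of 86 higher and 42 lower (-0.79) and MADS-box genes 4 of 38 higher and 17 lower (-0.72). NAC genes, with 24 of 66 higher and 25 lower, WRKY genes, with 23 of 68 higher and 20 lower, and AP2/ERF genes, with 38 of 103 higher and 42 lower, were split.

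Glycosyltransferases of the UGT family had 43 of 104 higher and 31 lower (median 0.22, and -1.11 with library totals only), and cytochromes P450 39 of 99 higher and 37 lower. Pentatricopeptide repeat proteins, which process RNA in organelles, had 78 of 466 higher and 58 lower (0.12, and -1.22 with library totals only). Proteins of organellar ribosomes had 10 of 66 higher and 29 lower. ABC transporters had 30 of 120 higher and 47 lower, protein phosphatases 2C 22 of 70 higher and 23 lower, and beta-glucosidases 9 of 34 higher and 17 lower.

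These counts moved with the setting. With library totals only the median of all the families was below 0, from -3.04 for GDSL esterases to -1.06 for cytochromes P450. Without the 3 libraries that stand apart 34 leucine-rich repeat receptor kinases were higher and 107 lower, and 8 MADS-box genes were higher and 20 lower. Organellar ribosomes then had 18 genes higher and 38 lower, and pentatricopeptide genes 145 higher and 93 lower. With close pairs added together 12 bHLH genes were higher and 31 lower, and 4 GDSL esterases were higher and 34 lower. ABC transporters then had 14 higher and 30 lower, pentatricopeptide genes 24 higher and 16 lower, and organellar ribosomes 4 higher and 12 lower. In that fit 20 WRKY genes were higher and 9 lower, and 3 MADS-box genes were higher and 11 lower. AP2/ERF genes had 33 higher and 23 lower, and phosphatases 16 higher and 11 lower.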
